A study of Mus musculus with 6 samples.

Results

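The genes described here are 10 that are known for high expression in granule cells, the principal neurons of the dentate gyrus of the hippocampus. They are Prox1, Dsp, Tdo2, Trpc6, Dock10, Plk5, Glis3, Npy1r, Stxbp6 and Lct, out of 22180 genes that had a probe row of their own among 41345 rows. Where several rows named a gene the brightest was to be taken, but each of the 10 had exactly 1 row, so no choice between rows arose. RNA came from C57BL/6J mice, an inbred strain, and from tissue labelled as whole hippocampus. The ethanol group received subcutaneous doses of 2.5 g/kg, dissolved in NaCl at 0.15 M, and the control group received saline. Pups of both groups were injected 2 times with 2 hours between, on postnatal day 4 and again on day 7. Every array held RNA of 3 pooled mice, and 3 arrays per group gave 18 mice in all, which were male per the treatment protocol. The labels put the age at 21 days in one place and at 70 days in another, and the age was not tested.

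Granule cells receive the input of the entorhinal cortex to the hippocampus and send their axons, the mossy fibres, to CA3 pyramidal cells. In mice many of them are born after birth, so newborn exposure falls into the period in which the dentate gyrus is being built. The homeobox factor Prox1 sets and maintains their identity, and granule cells that lose it take on features of CA3 neurons. The comparison of ethanol with saline asks whether ethanol given in the first postnatal week changed expression in the long run.

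All values are log2 expression values, so that a difference of 1 is a doubling. Binding strength differs from probe to probe, and levels therefore do not rank the transcripts of different genes. The place of a gene among all genes is given as a description. In RNA from whole tissue, fewer granule cells, less RNA per granule cell and another share of other cells cannot be told apart. Array medians over all rows lay between 6.55 and 6.66, and correlations between arrays over all rows were at least 0.987. Saline array 1 stood apart in some neuronal genes. Nrgn, a calmodulin-binding protein of forebrain neurons, stood at 9.11 there, against 7.17 to 7.48 on the other arrays. Sst, the interneuron peptide somatostatin, stood at 9.54 there, against 8.29 to 8.66. Tcf7l2, a factor of thalamic neurons among other cells, stood at 8.47 there, against 7.00 to 7.17, and Slc17a6, a glutamate transporter of thalamic neurons, at 8.66, against 7.94 to 8.29. Of 11 telencephalic excitatory genes 4 were highest on that array, and Neurod2 and Slc17a7 were not among them. Some results, though not all that change, are therefore also given without saline array 1.

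Promoter windows were taken from RefSeq (build GRCm38.p6), and all 10 genes had at least 1. The 250 bases before the start site are described here. CpG dinucleotides, the sites of DNA methylation in mammals, ranged from 1 in the Lct window to 27 in the upstream window of Dock10, against a median of 6 over 32851 windows. Prox1 and Dock10, which gave the highest values of the 10, and Tdo2 and Lct, which had the fewest CpG sites, are shown with each CpG in capitals. For Prox1 and Dock10 the table holds a further window, and the more upstream one is printed. They lie at chr1:190170828-190171077 on the minus strand (Prox1), chr1:80758554-80758803 on the minus strand (Dock10), chr3:81975729-81975978 on the minus strand (Tdo2) and chr1:128328319-128328568 on the minus strand (Lct).
Prox1: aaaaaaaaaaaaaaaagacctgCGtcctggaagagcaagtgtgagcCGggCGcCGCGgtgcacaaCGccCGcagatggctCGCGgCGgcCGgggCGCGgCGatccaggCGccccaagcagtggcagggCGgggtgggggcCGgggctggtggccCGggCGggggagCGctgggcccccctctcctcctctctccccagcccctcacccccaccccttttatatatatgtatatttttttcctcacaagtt
Dock10: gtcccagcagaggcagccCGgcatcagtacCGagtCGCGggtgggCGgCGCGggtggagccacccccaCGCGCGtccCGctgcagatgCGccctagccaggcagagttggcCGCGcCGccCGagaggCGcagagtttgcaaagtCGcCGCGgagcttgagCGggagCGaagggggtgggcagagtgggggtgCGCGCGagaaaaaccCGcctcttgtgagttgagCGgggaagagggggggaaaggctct
Tdo2: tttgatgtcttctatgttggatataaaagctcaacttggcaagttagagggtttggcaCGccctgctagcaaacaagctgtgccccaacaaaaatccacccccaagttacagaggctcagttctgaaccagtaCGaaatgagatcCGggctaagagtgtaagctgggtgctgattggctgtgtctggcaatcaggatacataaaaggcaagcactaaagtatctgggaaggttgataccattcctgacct
Lct: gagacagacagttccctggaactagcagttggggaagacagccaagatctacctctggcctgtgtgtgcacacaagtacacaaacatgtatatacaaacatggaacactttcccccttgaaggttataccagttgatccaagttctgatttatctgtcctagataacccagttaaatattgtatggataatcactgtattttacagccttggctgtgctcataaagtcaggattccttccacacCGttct

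The printed Prox1 window held 20 CpG sites and had a GC content of 64.8%, and that of Dock10 held 27 with 70.4%. The Tdo2 window held 3 CpG sites with 46.4% GC, and Lct 1 with 42.8%. A CpG-rich start did not go with a high value throughout. Dsp and Glis3 had 22 and 24 CpG sites and gave values below the median gene, and Stxbp6 had 12 and lay above it. The motif TATAAA, searched on both strands, occurred in the Prox1 and Tdo2 windows printed above, which are 2 of the 12 windows of these genes, and in 12.4% of all windows. The motif CAGATG, a form of the E-box that basic helix-loop-helix factors bind, was found on either strand in 3 of the 12 windows, against 14.4% of all windows. These were the printed Prox1 window and both windows of Dock10.

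Of the 10 genes, 4 lay above the median gene, which stood at 7.10 over the 6 arrays. These were Dock10 at percentile 84.4 of all genes, Prox1 at 72.9, Stxbp6 at 63.0 and Plk5 at 60.4. The other 6 lay below it, at percentile 43.0 for Trpc6, 40.9 for Lct, 39.3 for Npy1r, 35.5 for Glis3, 34.4 for Dsp and 18.6 for Tdo2. The position of each gene was similar on every array. Prox1, for example, ranged over percentiles 69.7 to 74.3 and Tdo2 over 15.8 to 21.1.

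**Figure D1:**
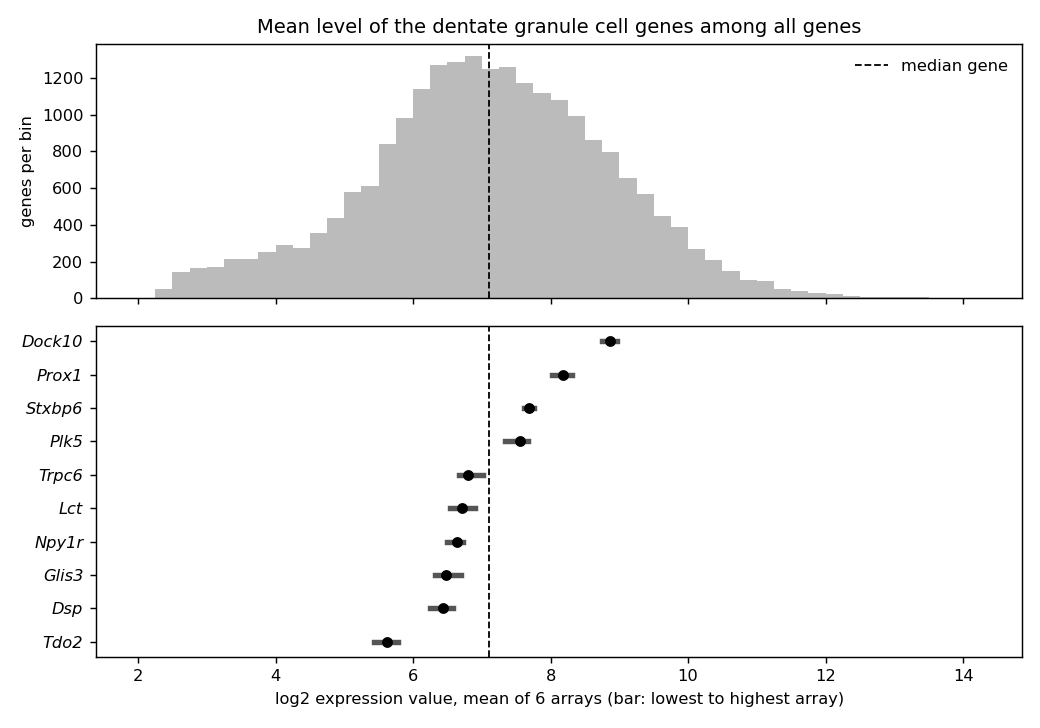
Upper panel: number of genes per bin of mean log2 expression value over the 6 arrays, for 22180 genes. Lower panel: the mean of each dentate granule cell gene (point) with its lowest to highest array (bar), on the same axis; 4 genes lie right of the dashed median gene at 7.10, and the spread between arrays is small beside the distances between genes.

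The labelled tissue was compared with marker lists. The 10 granule cell genes had a median level of 6.76. A further list of 14 measured genes known from dentate granule cells had a median of 8.29, with 12 of 14 above the median gene. Its lowest gene was C1ql2, a secreted C1q-like protein of mossy fibre synapses, at 6.47, and its highest was Calb1, the calcium buffer calbindin, at 12.28. Calb1 is also a gene of Purkinje cells, the output neurons of the cerebellar cortex.

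Genes of cerebellar neurons were among the brightest on these arrays. The median level was 10.51 over 12 genes of cerebellar granule cells, at percentile 97.6 of all genes, and 10.84 over 6 genes of Purkinje cells, at percentile 98.5. Gabra6, a GABA-A receptor subunit that defines cerebellar granule cells, stood at 12.17, and Car8, an inactive member of the carbonic anhydrase family in Purkinje cells, at 12.44. Barhl1 was the lowest cerebellar granule gene at 7.45. CA1 genes had a median of 6.85 and CA3 and CA2 genes one of 7.70. The 11 measured genes of telencephalic excitatory neurons had a median of 6.96 and a wide range. Slc17a7, a vesicular glutamate transporter, stood at 10.95, Neurod2, a transcription factor, at 10.58 and Camk2a, a synaptic kinase, at 9.76, whereas the forebrain factors Emx1, Tbr1 and Emx2 stood at 6.39, 5.74 and 5.28. Slc17a7 and Neurod2 are known from cerebellar granule cells too. Gabra6 is known to be scarce in the hippocampus, so that its value among the brightest genes goes against RNA of hippocampus alone. Of the 11 telencephalic genes 5 lay above the median gene, Camk2a among them. Neurod6 and Icam5 stood below it, at 6.76 and 6.96. Nrgn stood at 7.17 to 7.48 on all arrays but saline array 1. Which cells gave the signal of the 10 genes was therefore not established. Prox1 is also known from some interneurons and from oligodendrocytes, whose lists had medians of 8.73 and 9.60. Dsp is also known from epithelial and meningeal cells, and the list of meningeal and choroid plexus genes had a median of 8.19, with Ttr, the transthyretin of choroid plexus, at 13.22. The part of those cells, and of cerebellar neurons, in the values below was not tested.

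**Figure D2:**
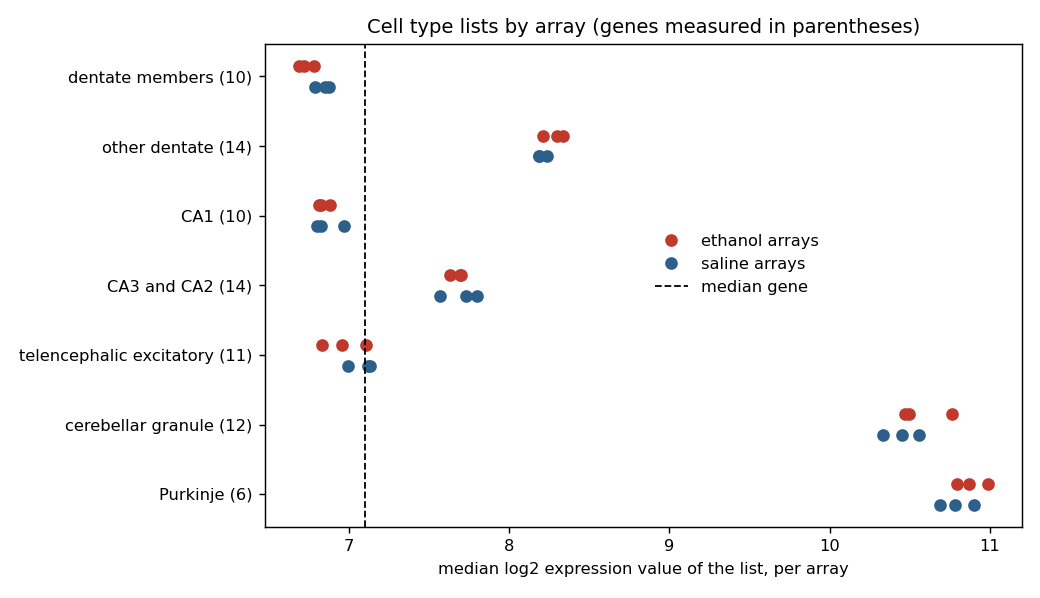
Median log2 expression value of each marker list on each array, with ethanol arrays above saline arrays in every row and the number of measured genes in parentheses. The median of the 10 dentate granule cell genes lies left of the median gene on all 6 arrays, whereas the medians of the cerebellar granule and Purkinje lists lie above 10 on all 6.

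By the test used, no difference between ethanol and saline was detected in any of the 10 genes. limma called 0 of the 10 at an adjusted p under 0.05, with adjusted p-values between 0.857 and 0.999, where it called 0 of 41345 rows, or 0%. At an unadjusted p under 0.05 there were 0 of the 10, against 5.54% of all rows, and the smallest unadjusted p among them in limma was 0.138. The 2 groups overlapped in all 10 genes, whereas they did not overlap in 11.1% of all rows (5.06% with ethanol higher and 6.01% with ethanol lower). Exact permutation tests (two-sided) gave p-values between 0.3 and 1, where 3 arrays against 3 cannot go below 0.1. Estimated differences ran from -0.16 for Lct to 0.17 for Tdo2, or up to 1.13-fold higher and 1.12-fold lower. The 95% intervals all held 0, and over the 10 genes they reached from -0.42 to 0.42. Larger differences than that lie outside the intervals of these genes.

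Of the transcription factors, Prox1 had values of 8.26, 8.30 and 8.13 in ethanol arrays 1 to 3, against 8.26, 8.10 and 8.02 in saline arrays 1 to 3. The groups overlapped, because saline array 1 lay as high as ethanol array 1. The difference was 0.10 ± 0.09 (SE, 3 arrays against 3; 95% interval -0.12 to 0.32), and leaving out 1 array gave 0.17 without saline array 1, 0.067 without ethanol array 2 and 0.050 without saline array 3. Glis3, a zinc finger factor related to the GLI proteins, stood at 6.47, 6.32 and 6.69 in ethanol and at 6.49, 6.33 and 6.56 in saline. Its arrays were ordered alike in both groups, with array 2 lowest and array 3 highest, and its difference was 0.04 ± 0.12. The array number does not mark a shared litter in the labels. Of its relatives, Glis1 was at -0.10, Glis2 at 0.05 and Prox2 at -0.01, and 0 of the 3 passed the test.

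Dsp encodes desmoplakin, which ties the desmosome, a cell junction, to intermediate filaments. It stood at 6.53, 6.24 and 6.29 in ethanol, against 6.57, 6.47 and 6.48 in saline. Ethanol arrays 2 and 3 lay below every saline array, whereas ethanol array 1 lay within the saline range. The means were 6.35 ± 0.16 on ethanol arrays and 6.51 ± 0.06 on saline arrays (SD, n = 3 each), and the difference was -0.15 ± 0.10 (SE). It was -0.24 without ethanol array 1 and -0.097 without ethanol array 2. Of the other 15 desmosome and plakin genes, 6 were higher and 9 lower in ethanol, 0 passed the adjusted test, and 1 had an unadjusted p under 0.05. Without saline array 1 the count turned to 10 higher and 5 lower. The gene with the small p was Dsc3, a desmosomal cadherin, at -0.30 ± 0.11 (adjusted p = 0.857 in limma). Jup, the plakoglobin of the same junction, was at 0.08 and Pkp4, a plakophilin-like protein with the highest level of the list, at 0.06.

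Tdo2 and Lct encode enzymes. With all 6 arrays they had the largest estimated differences of the 10, in opposite directions, but without saline array 1 Prox1 (0.17) and Trpc6 (-0.16) had larger ones. Tdo2 is tryptophan dioxygenase, which opens the kynurenine route of tryptophan breakdown. It stood at 5.64, 5.72 and 5.78 in ethanol, against 5.46, 5.43 and 5.73 in saline. Saline array 3 lay within the ethanol range and the other saline arrays lay below it. The difference was 0.17 ± 0.10 (95% interval -0.07 to 0.42), and leaving out 1 array gave 0.12 without saline array 2 and 0.27 without saline array 3. Of the other 14 measured tryptophan genes, 8 were higher and 6 lower, and 0 passed the adjusted test. Kmo, the kynurenine monooxygenase further down the route, was at -0.18 ± 0.07 with an unadjusted p of 0.039 in limma, opposite in sign to Tdo2. Ido1 and Ido2, which carry out the same first step, were at 0.16 and -0.07. Most of these genes were dim, with 2 of the 14 above the median gene.

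Lct is lactase, the milk sugar enzyme of the intestine. It stood at 6.75, 6.54 and 6.61 in ethanol, against 6.90, 6.89 and 6.60 in saline. Saline arrays 1 and 2 lay above every ethanol array, and saline array 3 lay among them. The difference was -0.16 ± 0.11 with all arrays (95% interval -0.42 to 0.10). Without saline array 1 it was -0.11, and without saline array 3 it was -0.26. Of the 4 related genes, Lctl was at -0.19, Gba2 at -0.01, Klb at 0.03 and Kl, the klotho protein of choroid plexus, at 0.08.

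**Figure D3:**
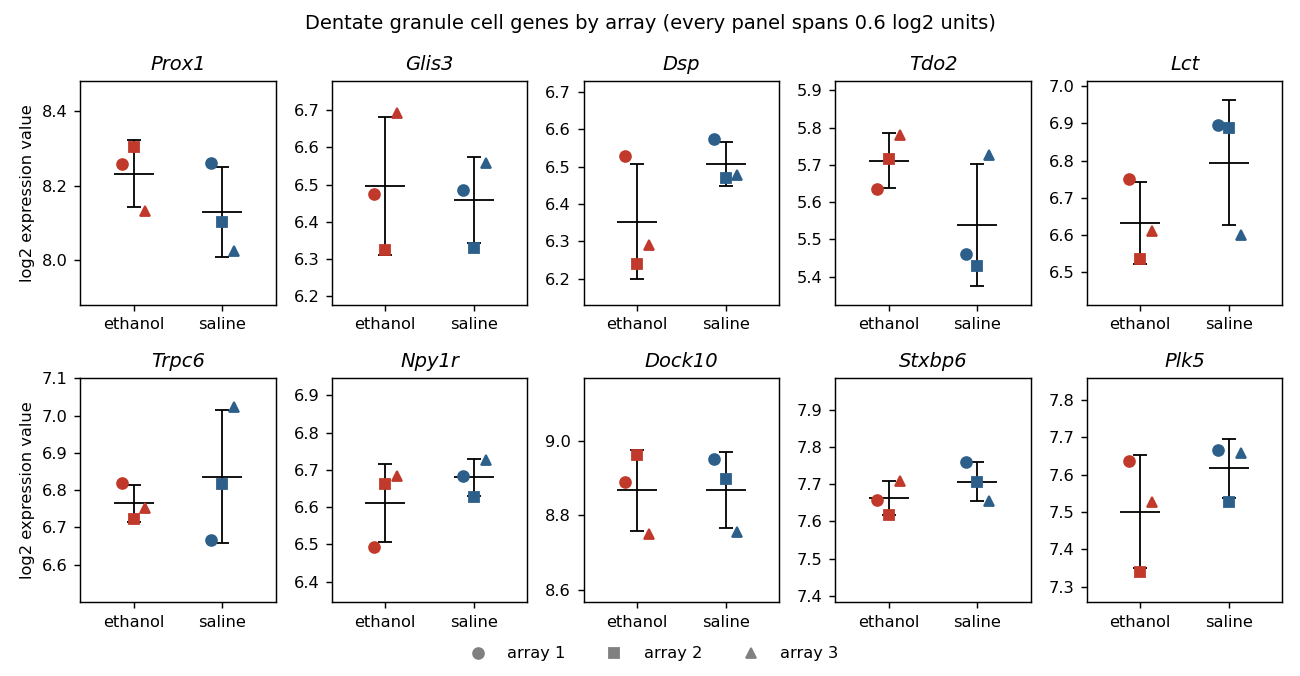
log2 expression value of each gene on every array, with ethanol left of saline, symbols for the array number, and the mean ± SD of 3 arrays in black. Every panel spans 0.6 log2 units; in each of the 10 panels the ranges of the groups overlap.

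Trpc6 is a cation channel opened by diacylglycerol. It stood at 6.82, 6.72 and 6.75 in ethanol, against 6.67, 6.82 and 7.02 in saline. The ethanol arrays lay close together, with an SD of 0.05 against 0.18 in saline, where array 3 was highest and array 1 lowest of all 6. The difference was -0.07 ± 0.11 with all arrays, and it moved to -0.16 without saline array 1 and to 0.02 without saline array 3. Of the 5 other measured TRPC channels, 4 were higher, 1 was lower and 0 passed the test, with Trpc1 at 0.09 and Trpc4 at -0.10.

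Npy1r is the Y1 receptor for neuropeptide Y, a peptide released by hippocampal interneurons. It stood at 6.49, 6.66 and 6.68 in ethanol, against 6.68, 6.63 and 6.73 in saline, with a difference of -0.07 ± 0.08. Ethanol array 1 was the lowest, and without it the difference was -0.0077. The other ethanol arrays lay within the saline range. Of 8 other genes of the peptide family and its receptors, 1 was higher, 7 were lower and 0 passed the test. Npy itself, the ligand, had 8.74, 8.73 and 8.66 in ethanol, against 9.30, 8.51 and 8.65 in saline. Its mean difference of -0.11 rested on saline array 1, and was 0.13 without it. Npy5r, another receptor of the peptide, was at 0.00, and Npy2r was at -0.05.

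Dock10, an exchange factor that activates the small GTPases Cdc42 and Rac, had the highest values of the 10. It stood at 8.89, 8.96 and 8.75 in ethanol, against 8.95, 8.90 and 8.76 in saline. The means were 8.87 ± 0.11 on ethanol arrays and 8.87 ± 0.10 on saline arrays (SD, n = 3 each). The 95% interval of the difference ran from -0.22 to 0.22. The difference was -0.0010 with all arrays and 0.041 without saline array 1. Of the 9 other measured DOCK genes, 6 were higher and 3 lower, and 0 passed the test. The groups did not overlap in 2 of the 9, both higher in ethanol, against 11.1% of all rows in either direction.

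Stxbp6, also called amisyn, binds the SNARE proteins of vesicle fusion. It was the steadiest of the 10, at 7.66, 7.62 and 7.71 in ethanol, against 7.76, 7.71 and 7.65 in saline. The 6 arrays spanned 0.14, and the difference was -0.04 ± 0.07 (95% interval -0.22 to 0.13). It was -0.018 without saline array 1 and -0.070 without saline array 3. Of its 9 measured relatives and SNARE partners, 7 were higher and 2 lower, and 0 passed the test. Snap25, a SNARE protein of neurons, had the highest level of that list and was at 0.10.

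Plk5 belongs to the polo-like kinases and is expressed in neurons. It stood at 7.64, 7.34 and 7.53 in ethanol, against 7.67, 7.53 and 7.66 in saline. Ethanol array 2 was the lowest, ethanol array 1 lay within the saline range, and the difference was -0.12 ± 0.10. It was -0.035 without ethanol array 2 and -0.18 without ethanol array 1. Of the 4 other family members, 2 were higher and 2 lower. Plk4, a kinase of centriole duplication, was at -0.24 ± 0.10 with an unadjusted p of 0.043 in limma and an adjusted p of 0.857.

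**Figure D4:**
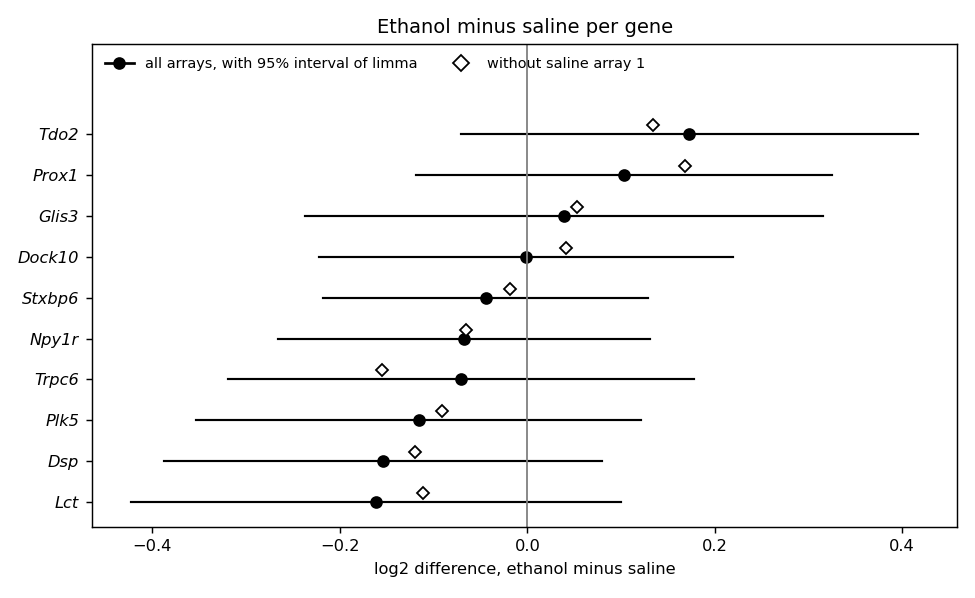
log2 difference, ethanol minus saline, of each dentate granule cell gene: filled points with the 95% interval of limma for all 6 arrays, and open diamonds for the difference without saline array 1. All 10 intervals hold 0; Trpc6 and Prox1 move farther from 0 without saline array 1, to -0.16 and 0.17.

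The 10 genes did not move together. In ethanol 3 were higher and 7 lower, with a median difference of -0.06, beside 57.2% of all genes higher and a median of 0.02. Without saline array 1, 4 were higher and 6 lower, with a median of -0.04. The difference was smaller than the standard deviation within groups in 7 of the 10 genes. That deviation ran from 0.05 in Stxbp6 to 0.15 in Glis3, with a median of 0.12, beside 0.11 for all genes. The median over the 10 genes was 6.78, 6.69 and 6.72 on ethanol arrays 1 to 3, against 6.79, 6.85 and 6.88 on saline arrays 1 to 3. Every ethanol median lay below every saline median, the closest being 6.784 on ethanol array 1 and 6.790 on saline array 1. On each array the median was set by 2 genes near the middle, drawn from Glis3, Npy1r, Lct and Trpc6. In each of these genes the groups overlapped. The median of the further 14 dentate genes lay the other way, with 8.28 ± 0.06 on ethanol arrays and 8.20 ± 0.03 on saline arrays (SD, n = 3 each). Of the 14, 11 were higher and 0 passed the test. The array medians of these 14 genes overlapped, with ethanol array 1 at 8.21 and saline array 2 at 8.24. Higher in ethanol were also 10 of 12 cerebellar granule and 10 of 14 CA3 and CA2 genes, but 3 of 10 CA1 genes. The levels of the CA3 and CA2 list ran from 6.16 for Cpne4 to 12.81 for Pcp4. Which cells gave the signal behind these counts was not established.

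Ethanol array 2, which had the widest spread of values over all rows (SD 2.03), gave the lowest value in 5 of the 10 genes, Dsp, Plk5, Glis3, Stxbp6 and Lct, whereas 17.4% of all genes were lowest there. It gave the highest value in Dock10 and Prox1, which had the highest levels, whereas 23.1% of all genes were highest there. Tdo2, the dimmest of the 10, lay 0.09 above its mean on that array, and Plk5 and Stxbp6 lie above the median gene. The part of that wider spread in the differences was not tested. Under quantile normalization, which gives all arrays the same spread, the median difference of the 10 was -0.04. Saline array 1 gave the highest value in 4 of the 10, Dsp, Plk5, Stxbp6 and Lct, whereas 21.2% of all genes were highest there. On that array the 10 genes lay between -0.20 (Tdo2) and 0.22 (Lct) from the mean of the other arrays.

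**Figure D5:**
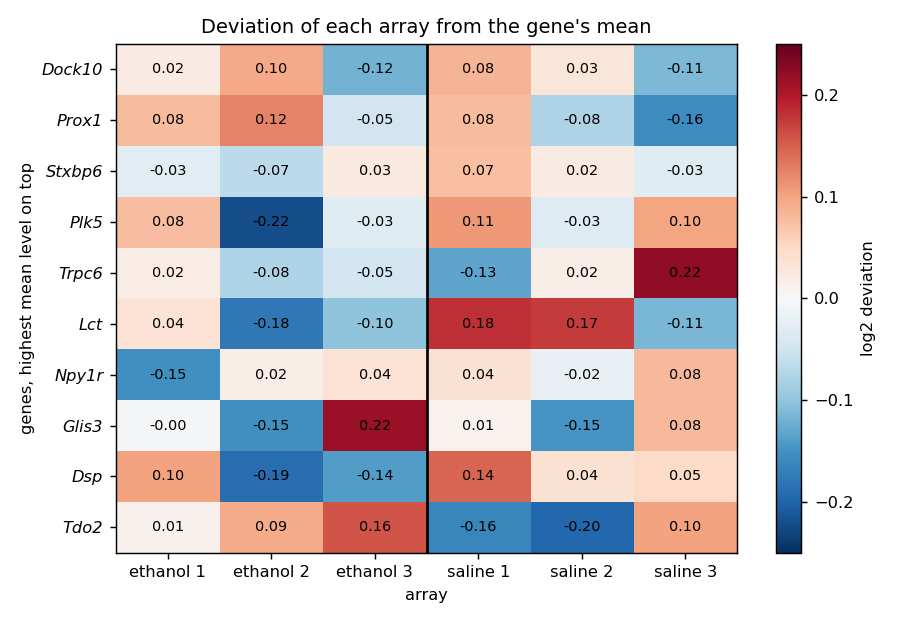
Deviation of every array from the mean of each gene over 6 arrays, on the log2 scale, with ethanol arrays left of the line and saline arrays right of it, and genes ordered by mean level. The largest deviations are 0.22 in size, and no column or group has 1 sign throughout.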

How the data were processed

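The authors deposited log2 expression values in 1 table, 1 column per array and 1 row per probe set. The log2 scale was read from the values. RNA (200 ng) was converted to complementary DNA, biotin-labelled and hybridized to Affymetrix whole-transcript arrays, per the labels' protocols. The genome build was mm 10, per the submitters' processing notes. Background correction, summarization and normalization are not given in the sources used here.

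The platform annotation named 1 gene in 23521 rows, several in 1814 and none in 16010. All 41345 rows were fitted in R 4.3.3 by limma 3.58.1, using lmFit and eBayes on the 2 groups without covariates (two-sided), with Benjamini-Hochberg adjustment over all rows at 0.05. Standard errors and 95% intervals come from this fit, and their precision is limited by the number of arrays. The test was checked on simulated data, in which the changes added were larger than any difference estimated for the 10 genes. P-values measure the spread between pools of mice. The 10 genes and all lists were chosen with earlier results of these data known, so no list was tested. Beside the 10, the text names list genes with an unadjusted p under 0.05, the extremes of a list by level, and related genes chosen after their values were seen.

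Same-numbered arrays did not deviate together: over rows, deviations from the group means correlated at 0.10, -0.06 and 0.04 for numbers 1, 2 and 3, so arrays were not paired.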

Additional observations from a re-analysis of the deposited data

How the results depend on the processing

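Of the 10 genes, 0 were called in each of the 16 alternatives, and the smallest adjusted p in limma among them was 0.613. The alternatives were quantile normalization, median centring, cyclic loess, 2 limma priors, 2 row filters, array weights, the array number as a replicate block, the mean over a gene's rows, and leaving out each array. Of these, 6 (the priors, the filters, the block and the mean over rows) leave each gene's difference as it was by construction. The mean over rows repeats the main fit, calls included, since each of the 10 genes had 1 row. In the 10 settings that can change a difference, 92 of 100 recomputed differences kept their sign. Dock10, at -0.0010 with all arrays, was at 0.038 with median centring and 0.0038 with array weights. Leaving out 1 array gave -0.058 to 0.058 for Dock10, -0.059 to 0.13 for Glis3 and -0.16 to 0.022 for Trpc6. The filter on rows above the median brightness kept 7 of the 10 genes, of which 1 was higher in ethanol. Fewer genes enter there by construction, since Dsp, Glis3 and Tdo2 fall below it. The median difference of the 10 ran from -0.07 to -0.02 over the alternatives. Rows called among all rows numbered 0, or 0 to 1 when 1 array was left out. With the replicate block 0 rows were called, 0 of the 10 genes among them, and the median difference was -0.06 as before.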

Other observations

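An unadjusted p under 0.05 in limma was found in 5.54% of all rows. In the other cell type lists, it was found in 2 of 13 genes of progenitors and immature neurons. Interneurons had 1 of 12, telencephalic neurons 1 of 11, CA1 1 of 10, and CA3 and CA2 1 of 14. The remaining cell type lists had 0. Each of these genes had an adjusted p of 0.857 in limma, and the cells that gave their signal were not established. Hopx, a marker of quiescent neural progenitors of the dentate gyrus that astrocytes also express, was at 0.20 ± 0.07, averaging 8.06 in ethanol and 7.86 in saline. Calb2, the calcium buffer calretinin of immature granule neurons and of cerebellar granule cells, was at 0.18 ± 0.07. Of 13 measured genes of progenitors and immature neurons, 9 were higher and 4 lower, with a median difference of 0.03. The count turned to 7 higher and 6 lower without saline array 1. With all arrays the groups did not overlap in 2 of the 13, beside 11.1% of all rows. Dcx, the microtubule protein of migrating young neurons, was at 0.02 and Eomes, a factor of intermediate progenitors, at 0.09. Eomes changed sign without saline array 1, to -0.08. Sp8, a factor of some interneurons, was dim and stood at 0.33 ± 0.11, with 5.73 in ethanol and 5.41 in saline. Slc17a7, a vesicular glutamate transporter, was at 0.21 ± 0.08, Fibcd1, a CA1 gene, at -0.22 ± 0.08 and Iyd, a CA3 gene, at -0.19 ± 0.08.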
